A study of Homo sapiens with 18 samples.

Results

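Flag-SBP2 RIP against its own input comprised 6 of the 18 libraries of the series: 3 RIP libraries and the 3 input libraries of the same lysates. They were chosen by their labels alone, as the Flag-SBP2 libraries whose labels name no selenite. In RNA immunoprecipitation sequencing (RIP-seq), a tagged protein is pulled out of a lysate and the RNA that comes along is sequenced beside that of the whole lysate. The cells were HEK 293T, a human embryonic kidney line that takes up plasmids readily, although the growth protocol names the parental HEK line. Flag-SBP2 cells were transiently transfected with a Flag-SBP2 plasmid, so the bait was overexpressed in addition to any SBP2 of the cells themselves. Control cells received the Flag plasmid without SBP2. The remaining set received Flag-SBP2 and, 4 h after transfection, 100 nM sodium selenite. Every set was lysed 48 h after transfection, and 1 part in 5 of each sample was kept as input before 4 mg of protein met anti-Flag beads for 5 h. Beads were washed in 300 mM and then 500 mM KCl. Each set had 3 biological replicates per the series' design, and the labels do not say whether these were transfected on separate days.

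SBP2, SECIS-binding protein 2, recognises the SECIS element, a stem-loop with a kink-turn core in selenoprotein mRNAs. Bound there, it helps the ribosome to read UGA as selenocysteine instead of stop. RNA on anti-Flag beads can come with SBP2, with proteins and ribosomes that SBP2 contacts, or with the beads themselves. A RIP-to-input ratio holds all of these together. The Flag vector precipitation gives the make-up of the RNA that came without Flag-SBP2, as shares and not as an amount.

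The deposited table names RNAs by Ensembl gene ID, and 0 of its 58676 IDs could be paired with a symbol. IDs are therefore given as deposited, at most 2 in each direction of a comparison, and no gene role, marker check or sequence is given. The transfected SBP2 gene and the markers of the cell type were for the same reason not analysed here. Levels are CPM, counts per 1000000 counts of a library, after scaling by TMM factors, which align the bulk of IDs between libraries. CPM are shares of a library, so the total amount of RNA on the beads is not measured. A lower level in these bulk lysates cannot separate fewer expressing cells from less RNA per cell.

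SBP2 RIP libraries held 25.1 to 28.3 M counts (M, counts divided by 1000000), against 15.6 to 22.2 M in SBP2 inputs. Between 24352 and 24965 IDs had a count in SBP2 RIP libraries, against 23337 to 24596 in SBP2 inputs. No SBP2 library repeated another: counts of replicate pairs gave a chi-square of 5.07 to 9.72 per degree of freedom, where sampling noise alone gives about 1. The RIP libraries varied less between replicates, and they were also the deeper ones. Their variation was not adjusted for depth. Across the 13205 IDs that averaged at least 1 log2 CPM, the median coefficient of variation was 6.14% over the 3 RIP libraries and 7.95% over the 3 inputs. The log2 RIP-to-input ratios of the 3 lysates correlated across these IDs at Pearson's r of 0.950 to 0.959, a description over IDs that share libraries and are not independent.

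RNA recovered with Flag-SBP2 differed from that of its lysate at most tested IDs, in both directions. In SBP2 RIP 5363 of 17678 tested IDs were higher than in SBP2 input (30.3% of IDs) and 5585 were lower (31.6%), together 61.9%, by edgeR's quasi-likelihood test at a Benjamini-Hochberg adjusted p under 0.05. At 2-fold or more 1518 IDs were higher (8.59%) and 2604 were lower (14.7%). At 4-fold or more the counts were 132 higher and 658 lower, and at 8-fold or more 10 and 144. Large falls outnumbered large rises. The middle of all log2 changes lay at -0.02, with 5% of IDs below -1.77 and 5% above 1.23. The replicates did not overlap between RIP and input for 5990 IDs on the high side (33.9%) and 6120 on the low side (34.6%). The ratio was positive in all 3 lysates for 5334 of the 5363 higher IDs, and negative in all 3 for 5522 of the 5585 lower IDs.

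The higher IDs took up 56.2% ± 0.94 of SBP2 RIP counts and 30.0% ± 0.55 of SBP2 input counts (SD, n = 3). The lower IDs took up 23.3% ± 0.84 of RIP counts and 50.1% ± 0.79 of input counts (SD, n = 3). These shares describe sets chosen on the same libraries and carry no test. The 132 IDs at 4-fold or more above input grew to 4.33% ± 0.19 of SBP2 RIP counts, against 0.699% ± 0.015 of SBP2 input counts (SD, n = 3). In control lysates the same IDs held 0.729% ± 0.0085 of RIP counts and 0.749% ± 0.011 of input counts (SD, n = 3). These like sums cover members that moved both ways with the vector, 42 higher (31.8%), 40 lower (30.3%) and 50 not called. Of all IDs 31.5% were higher and 39.7% lower with the vector.

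**Figure D1:**
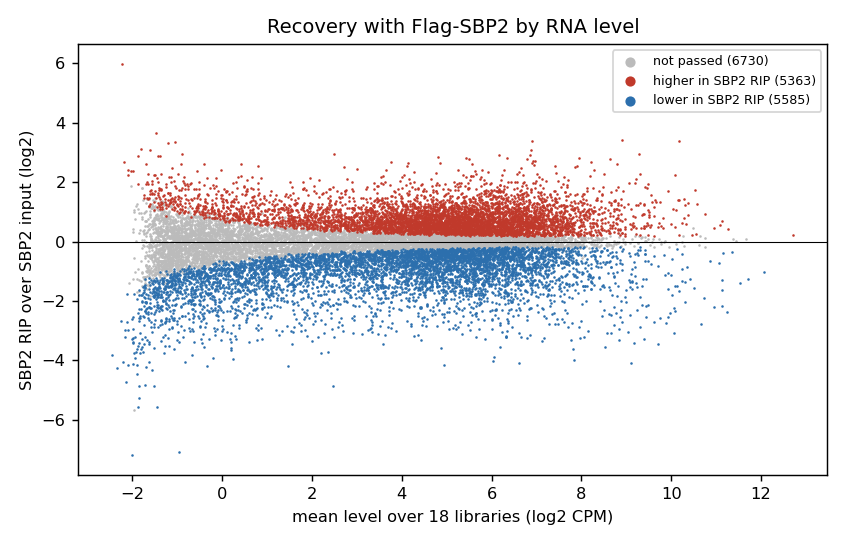
Log2 change of SBP2 RIP over SBP2 input (y axis) against the mean level over 18 libraries in log2 CPM (x axis), 1 point per tested ID. Red points are the 5363 higher IDs, blue the 5585 lower IDs and grey those that did not pass. Of all tested IDs 5% lie below -1.77 and 5% above 1.23.

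ENSG00000183291 showed the largest rise among the IDs that averaged at least 1 log2 CPM, passed the test and kept RIP and input replicates apart. Its level was 2742, 2936 and 2845 CPM in SBP2 RIP, against 294, 297 and 216 CPM in the inputs of the same lysates. In control lysates it had 119, 136 and 117 CPM in RIP and 319, 221 and 190.1 CPM in input. All 3 SBP2 RIP values lay far above the inputs and the control libraries, while control RIP lay below control input. The log2 change over input was 3.40 (SE 0.18, 10.6-fold, edgeR adjusted p = 1.98e-11), and the difference from the control change was 4.37 (SE 0.24, edgeR adjusted p = 1.43e-10).

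ENSG00000211450 rose as much, from a lower level. It had 483, 600.2 and 599.6 CPM in SBP2 RIP, against 63.2, 48.6 and 48.1 CPM in SBP2 input. Control lysates gave 28.4, 31.1 and 24.2 CPM in RIP and 66.1, 51.7 and 51.5 CPM in input. RIP and input were fully separated, upward with SBP2 and downward with the vector. The log2 change over input was 3.40 (SE 0.13, 10.5-fold, edgeR adjusted p = 1.47e-17), and the difference from control was 4.41 (SE 0.17, edgeR adjusted p = 1.03e-16).

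ENSG00000274012 lay at the opposite end. It had 0.928, 0.523 and 1.10 CPM in SBP2 RIP, from 14 to 31 counts per library, against 28.3, 17.9 and 28.6 CPM in SBP2 input. Control lysates gave 0.404, 0.526 and 1.31 CPM in RIP and 32.2, 45.9 and 81.7 CPM in input. This RNA was scarce in RIP libraries of both baits, and its input level varied between lysates. The fall with SBP2 was -4.86 on the log2 scale (SE 0.53, edgeR adjusted p = 2.72e-06), and the difference from control was 1.25 (SE 0.87, edgeR adjusted p = 0.291), which did not pass. With the lysate as a block this difference was 1.29 and passed (edgeR adjusted p = 0.000913).

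ENSG00000266402 had 0.766, 0.972 and 0.567 CPM in SBP2 RIP, against 16.6, 13.1 and 12.7 CPM in SBP2 input. In control lysates it had 0.740, 0.676 and 0.425 CPM in RIP and 16.0, 8.49 and 6.68 CPM in input. RIP and input did not overlap in either set of lysates. Its log2 change with SBP2 was -4.19 (SE 0.32, edgeR adjusted p = 2.08e-10), at a difference from control of -0.13 (SE 0.52, edgeR adjusted p = 0.874). A p that misses the threshold does not show equal recovery with both baits.

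The 12 IDs with the largest rises and the 12 with the largest falls were set against the control. The 12 rises spanned log2 2.80 to 3.40 over SBP2 input, and the same IDs spanned -3.37 to 1.05 in control RIP over control input. All 12 were recovered above control by the test of the difference, where 21.7% of all IDs were. In control RIP 9 of them were lower than input, 2 were higher and 1 did not pass. Of all IDs 39.7% were lower and 31.5% higher with the vector. The 12 falls spanned -4.86 to -3.57 with SBP2 and -6.11 to -3.21 in control. Of these 0 passed the difference from control by edgeR, DESeq2 or limma voom, where 39.8% of all IDs passed by edgeR. Among these 12 falls, 1 reached an unadjusted edgeR p under 0.05, and 2 passed by edgeR with the lysate as a block. The 12 rises were chosen on the SBP2 change, which is part of the difference, so their side of the control is a description.

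**Figure D2:**
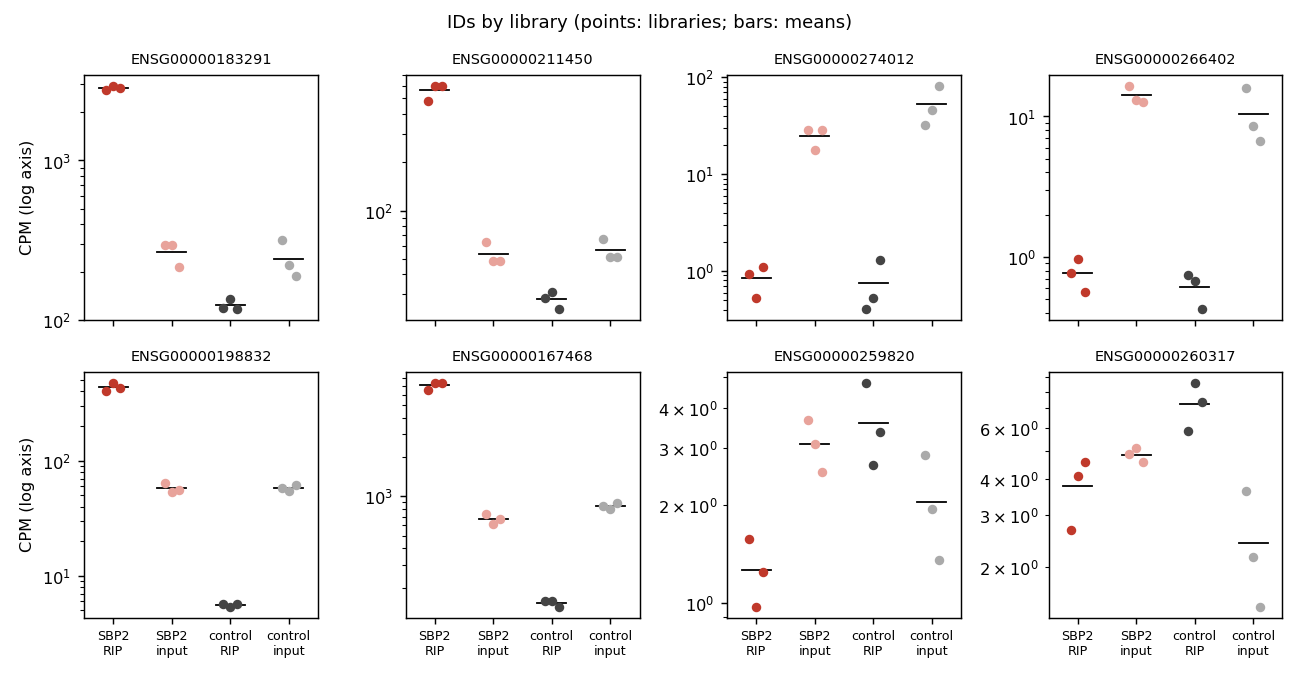
CPM of 8 IDs (1 panel each, log axis) in SBP2 RIP, SBP2 input, control RIP and control input, with 1 point per library and bars at the means of 3. The 4 upper panels are the largest rises and falls of SBP2 RIP over input, and the 4 lower panels the largest differences from control in each direction. ENSG00000183291 reached 2742 to 2936 CPM in SBP2 RIP and at most 319 CPM in the other groups shown.

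Over all IDs, rises and falls were split by how they compared with the control. Whether an ID was recovered more or less with SBP2 than with the vector was tested as the SBP2 RIP-to-input change minus that of the control, tested by edgeR. The difference contains the SBP2 change, so larger rises lean above control and larger falls below it by construction. Of the 5363 higher IDs, 1766 (32.9%) were also above control, 2104 (39.2%) did not pass the difference and 1493 (27.8%) were below control. Which side was larger turned with the setting: 1636 were above and 1802 below with DESeq2 size factors, 1550 and 1953 with library size alone, 1643 and 1817 by the DESeq2 test, and 1492 and 1843 without the low-count filter. Of all tested IDs 39.8% passed the difference, 21.7% above control and 18.1% below it; at 2-fold or more 12.9% passed, 9.55% above and 3.36% below. These 2-fold calls numbered 1689 above and 594 below, against 1352 and 1056 with library size alone and 1381 and 1045 without the filter. Of the calls of any size 54.6% were above control with TMM, 46.0% with DESeq2 size factors, 41.2% without the low-count filter and 40.7% with library size alone. Library size alone shifted the median difference of all IDs to -0.13, against 0.02 with TMM. The share above control was 51.7% of the 1518 IDs higher at 2-fold or more and 81.8% of the 132 at 4-fold or more. At 4-fold or more 0 of 132 lay below control by edgeR, DESeq2 or limma voom, and 0 at an unadjusted edgeR p under 0.05.

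Falls mostly did not differ detectably from the control. Of the 5585 lower IDs, 1141 (20.4%) were above control, 3858 (69.1%) did not pass the difference and 586 (10.5%) were below control. With library size alone the counts were 750 above and 902 below control. Of the 658 IDs lower at 4-fold or more, 85.9% did not pass and 11.9% were above control. Of the 144 lower at 8-fold or more, 7 were above control (14 with the lysate as a block), 93.8% did not pass, and 141 of them also fell with the vector, where 39.7% of all IDs did. Their median log2 change was -3.34 with SBP2 and -3.48 with the vector.

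**Figure D3:**
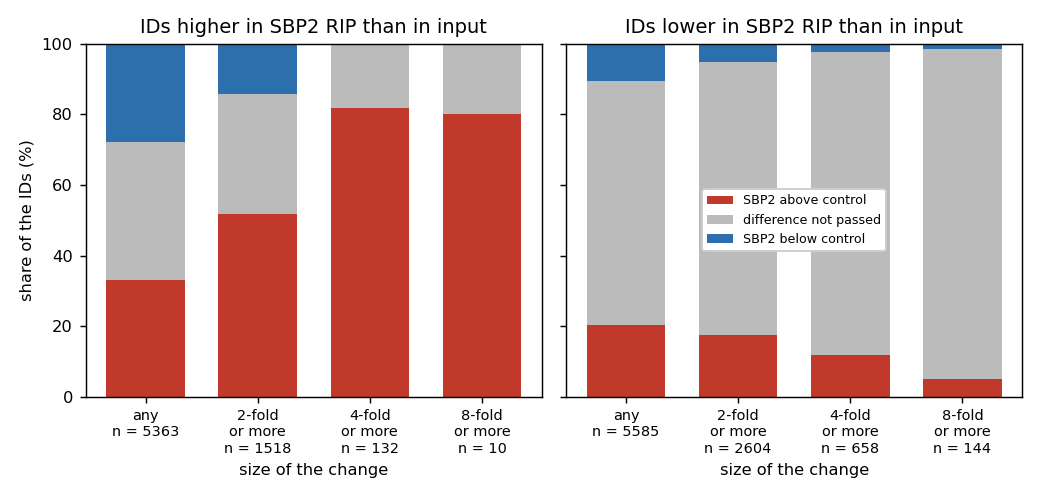
Shares of the IDs higher (left) and lower (right) in SBP2 RIP than in input, in percent on the y axis, that lay above control, did not pass the difference or lay below control, by the size of the change on the x axis. The share above control among higher IDs was 32.9% at any size and 81.8% at 4-fold or more.

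The 3 classes of higher IDs were set by the SBP2 and control changes, so their levels in these libraries are a description of the split. The 1766 above control had a median log2 change of 0.91 with SBP2 and -0.22 with the vector, and their counts made up 29.8% ± 0.33 of SBP2 RIP, 14.0% ± 0.18 of SBP2 input, 13.9% ± 0.13 of control RIP and 14.5% ± 0.3 of control input (SD, n = 3). Their share was larger in SBP2 RIP than in its input, and control RIP and control input lay close together. The 2104 that did not pass the difference had medians of 0.69 with SBP2 and 0.70 with the vector. The 1493 below control had medians of 0.62 with SBP2 and 1.33 with the vector. These last IDs made up 12.5% ± 0.31 of SBP2 RIP counts and 23.2% ± 0.38 of control RIP counts (SD, n = 3), against 7.59% ± 0.18 of SBP2 input and 7.79% ± 0.38 of control input. All 1493 were also called higher with the vector, which the choice of this class all but fixes.

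A set of 788 IDs (4.46% of all tested) was higher than input with SBP2 and lower with the vector, and 121 (0.684%) showed the reverse. Both sets were picked for opposite changes with the 2 baits, so their difference from control is fixed by that choice and carries no test. The 788 had a median log2 change of 0.69 with SBP2 and -0.73 with the vector, and 90 of them moved by 2-fold or more on both sides. With the vector 35.1% of all IDs passed at 2-fold or more, 13% higher and 22.1% lower. They held 15.4% ± 0.11 of SBP2 RIP counts, 7.86% ± 0.098 of SBP2 input, 4.99% ± 0.074 of control RIP and 8.27% ± 0.12 of control input (SD, n = 3). The 121 moved little, with medians of -0.41 with SBP2 and 0.41 with the vector, and 3 of them reached 2-fold on both sides.

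ENSG00000198832 had the largest difference from control. It rose to 403, 473 and 427 CPM in SBP2 RIP, against 63.8, 53.3 and 55.9 CPM in SBP2 input. In control lysates it had 5.69, 5.41 and 5.68 CPM in RIP and 58.2, 54.5 and 61.3 CPM in input. The inputs of both sets were alike in level, and the RIP libraries parted to either side of them. Its log2 change over input was 2.91 with SBP2 (SE 0.094, edgeR adjusted p = 1.68e-19) and -3.37 with the vector (SE 0.11, edgeR adjusted p = 3.69e-20).

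ENSG00000167468 came next, with 6483, 7342 and 7326 CPM in SBP2 RIP, against 730.4, 619 and 674 CPM in SBP2 input. In control lysates it had 157, 157 and 143 CPM in RIP and 837, 806 and 881 CPM in input. Only 2 IDs had a higher mean level in SBP2 RIP. The log2 change was 3.39 with SBP2 (SE 0.1, edgeR adjusted p = 2.64e-20) and -2.46 with the vector (SE 0.097, edgeR adjusted p = 2.14e-18).

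The first 2 IDs below control had low levels. ENSG00000259820 had 1.57, 0.972 and 1.24 CPM in SBP2 RIP and 3.66, 3.10 and 2.54 CPM in SBP2 input, and 4.78, 2.67 and 3.37 CPM in control RIP and 2.85, 1.94 and 1.36 CPM in control input. It was below input in each SBP2 lysate and above it in each control lysate (log2 -1.28 with SBP2, edgeR adjusted p = 0.00064, and 0.85 with the vector, edgeR adjusted p = 0.00926). ENSG00000260317 had 2.66, 4.11 and 4.57 CPM in SBP2 RIP and 4.88, 5.12 and 4.57 CPM in SBP2 input, a change of -0.35 that did not pass (edgeR adjusted p = 0.201). In control lysates it had 5.86, 8.57 and 7.38 CPM in RIP and 3.64, 2.16 and 1.46 CPM in input (log2 1.63, edgeR adjusted p = 1.78e-06).

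**Figure D4:**
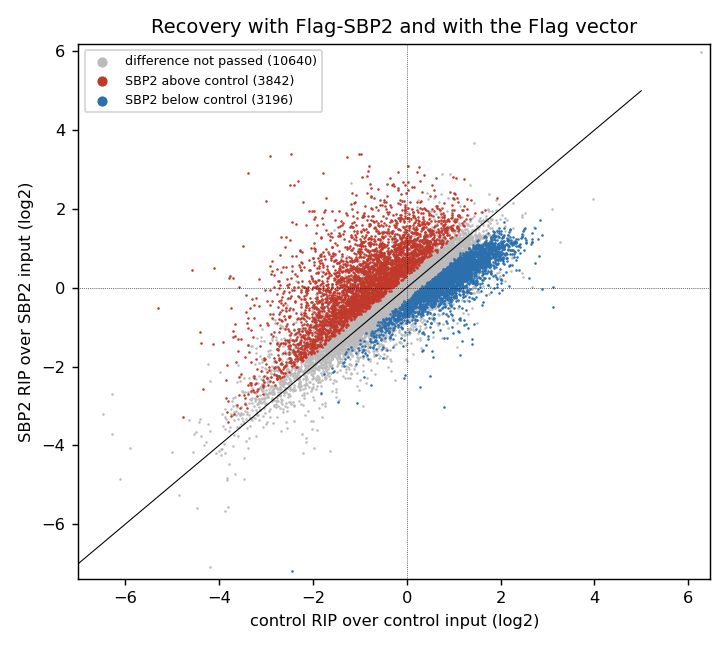
Log2 RIP-to-input change with Flag-SBP2 (y axis) against that with the Flag vector (x axis), 1 point per tested ID, with the line of equal change. Red points lie above control by the test of the difference (3842), blue below it (3196) and grey did not pass, and the red points reach further from the line than the blue.

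Across all 17678 IDs, changes with SBP2 and with the vector correlated at Pearson's r of 0.713 (Spearman's rho 0.693), and 76.7% had the same sign. The lysates with selenite shared no library with these and gave r of 0.927 (rho 0.922), with 89.3% of the same sign. Both are descriptions over IDs, which share the libraries behind them. Changes with the vector were broader, with 5% of IDs below -2.25 and 5% above 1.45, and 71.2% of IDs passed. Of the IDs higher with SBP2, 3586 were also higher with the vector, 66.9% of the SBP2 list and 64.4% of the vector list, where 31.5% of all IDs were higher. Of the lower IDs 4604 were shared, 82.4% of the SBP2 list and 65.6% of the vector list, where 39.7% of all IDs were lower.

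The lysates with selenite gave the same comparison in libraries that do not enter the SBP2 change. Those libraries did enter the shared filter, mean level, TMM scaling and spread estimate, so the calls are not fully independent. With selenite 62.1% of IDs passed, and at 2-fold or more 8.44% were higher and 14.8% lower. Of the 5363 IDs higher with SBP2 alone, 4751 (88.6%) were also called higher there, against 30.6% of all IDs, and 5318 had the same sign. Of the 1518 higher at 2-fold or more, 1399 were called higher and 0 lower by edgeR, also 0 at an unadjusted p under 0.05. Of the 5585 lower IDs, 4872 (87.2%) were called lower, against 31.5% of all IDs. ENSG00000183291 changed by 3.54 and ENSG00000211450 by 3.41 on the log2 scale with selenite, against 3.40 for both without.

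Rises were more common among IDs with a higher mean level. When IDs were split by their mean level over all 18 libraries into 5 bins of 3535 or 3536 IDs, the share higher in SBP2 RIP was 9.33% in the lowest bin, then 20%, 35.2%, 41.5% and 45.6% in the highest. The share lower was 24.8% in the lowest bin and 32.1% to 34.1% in the others. The median standard error of the log2 change was 0.43 in the lowest bin and 0.09 in the highest, so fewer small changes could be detected among scarce RNAs. The median change moved the same way, at -0.24, -0.13, 0.03, 0.09 and 0.13. With the vector these medians were -0.40, -0.27, 0.01, 0.06 and -0.08. At 2-fold or more the shares higher were 7.24%, 6.31%, 7.27%, 8.74% and 13.4% from the lowest bin to the highest. Rises of this size thus stood out mainly in the highest bin. The shares lower were 22.0%, 16.1%, 11.6%, 10.8% and 13.2%. The mean level includes the SBP2 RIP libraries, with and without selenite, so a rise itself moves an ID towards higher bins. The trend over bins is therefore a description.

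**Figure D5:**
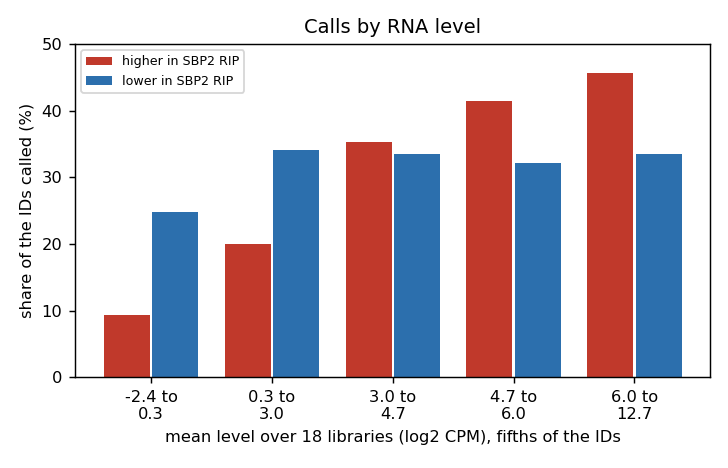
Share of IDs called higher (red) or lower (blue) in SBP2 RIP than in SBP2 input, in percent, in 5 equal bins of the mean level in log2 CPM. The share higher was 9.33% in the lowest bin and 45.6% in the highest.

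Of the 8 most abundant IDs in SBP2 RIP, 6 were higher than in input and 2 did not pass, where 30.3% of all IDs were higher. Ranking on the SBP2 RIP level favours IDs above input, so these counts are a description. The second of them rose by only 0.24 on the log2 scale (edgeR adjusted p = 0.0466). The first reached 7472 ± 524 CPM in SBP2 RIP and 2830 ± 259 CPM in SBP2 input (SD, n = 3), against means of 80.8 CPM in control RIP and 55.1 CPM in control input. Both its RIP and its input level were thus far lower in control lysates. Whether this ID is the transfected SBP2 gene could not be told without symbols and was not tested. Of these 8 IDs 7, the first included, were above control by the test of the difference, where 21.7% of all IDs were. With the vector 5 of the 8 had log2 changes under -1, where 22.1% of all IDs were called lower at 2-fold or more. ENSG00000167468 was the only one of the 4 named risers among them.

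Counts were spread more evenly over IDs in SBP2 RIP than in its input. For this each library was ranked by its own counts, so the top IDs need not be the same in RIP and input. The top 10 IDs of each library held 4.52% ± 0.024 of SBP2 RIP counts and 4.99% ± 0.15 of SBP2 input counts (SD, n = 3). The top 100 held 18.1% ± 0.14 of RIP and 20.8% ± 0.58 of input counts, and the top 1000 held 49.8% ± 0.14 of RIP and 52.0% ± 0.65 of input counts. Control RIP was flatter still, with 3.27% ± 0.09 in the top 10 and 15.1% ± 0.23 in the top 100 (SD, n = 3). SBP2 RIP did not overlap with either group in these shares, at a two-sided exact permutation p of 0.1 each, the smallest that 3 against 3 allow (adjusted p = 0.1 over 6 comparisons).

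Presence and absence added little. Of IDs with a count in SBP2 libraries, 25382 were found in both RIP and input, 3056 in RIP alone and 2289 in input alone. Those in RIP alone held 0.0073% of RIP counts, with at most 28 counts for 1 ID over 3 libraries. Those in input alone held 0.008% of input counts, with at most 43. At this depth such IDs lie near the limit of detection.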

How the data were processed

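RNA of 18 libraries was measured by RIP-seq, and each library was placed in its group by its title. The authors deposited whole-number counts per Ensembl gene ID. The tools named are Trim Galore 0.6.6 for trimming, featureCounts 2.0.1 for counting and STAR 2.7.6a for alignment, with GRCh38 as the build, per the submitters' processing notes. Not given in the sources used here are the annotation, the strand setting and the handling of multi-mapped reads, so overlapping genes, antisense partners and pseudogenes may hold reads of one another. The label gives the molecule as polyA RNA.

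Library totals ran from 15.2 to 29.9 M counts. The filterByExpr function of edgeR 4.0.16 (minimum count 10, minimum total 15) kept 17678 IDs, which held 99.9% or more of every library's counts. The main test was the robust quasi-likelihood test of edgeR on TMM-scaled counts in R 4.3.3, in 1 group-means model over 18 libraries, with Benjamini-Hochberg adjustment over all kept IDs. Each standard error is the log2 change over the root of the F statistic. Per-lysate ratios used log2 CPM with a prior count of 2. The scripts were tested on simulated data. The alternatives were DESeq2 1.42.0 and limma 3.58.1 voom, other scalings, no low-count filter, the compared groups alone, a lysate block and leaving out each library.

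Named IDs were the first 2 in each direction among IDs that passed the test, moved by at least 1 and averaged at least 1 on the log2 scale, and whose replicates did not overlap. For the difference from control, this overlap was judged on per-lysate ratios. The rule also asked for a symbol, which could not be looked up: 0 of 59792 genes in the reference table used carried an Ensembl ID. Its parts on lists and symbols were not used, and gene lists prepared by symbol were not analysed here. The comparisons and lists were chosen with earlier results of these data known. P-values weigh each change against the spread between these samples, estimated over all groups without pairing RIP and input of a lysate. Same-numbered input and RIP libraries share 1 lysate per the protocol. Deviations from group means correlated at 0.13 to 0.26 for same-numbered SBP2 pairs and 0.044 to 0.38 for control pairs. Differently numbered pairs gave -0.25 to 0.025 for SBP2 and -0.37 to 0.17 for control. Control RIP 2 correlated more with control input 1 (0.17) than with control input 2 (0.044).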

Additional observations from a re-analysis of the deposited data

Results flagged for a closer look

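The RIP-to-input change of 6 named IDs differed between Flag-SBP2 and Flag vector lysates by edgeR's test of the difference (quasi-likelihood, Benjamini-Hochberg adjusted). ENSG00000198832, ENSG00000167468, ENSG00000259820 and ENSG00000260317 were picked by this same test. ENSG00000211450 and ENSG00000183291 were picked by the SBP2 change, which is part of the difference. That they passed is therefore a description and no separate evidence. The difference on the log2 scale, SBP2 minus control, was 6.29 for ENSG00000198832 (SE 0.14, edgeR adjusted p = 9.52e-23) and 5.85 for ENSG00000167468 (SE 0.14, edgeR adjusted p = 1.91e-22). It was 4.41 for ENSG00000211450 and 4.37 for ENSG00000183291. It was -2.14 for ENSG00000259820 (SE 0.41, edgeR adjusted p = 0.000156) and -1.98 for ENSG00000260317 (SE 0.34, edgeR adjusted p = 3.98e-05). For ENSG00000260317 the SBP2 ratios spanned -0.85 to 0.00058 and the control ratios 0.67 to 2.27. Without single libraries this difference ran between -2.36 (without control input 1) and -1.70 (without control input 3).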

How the results depend on the processing

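The 4 counts of SBP2 RIP against its input stayed within 1.5 times their values under every alternative run: 5024 to 5688 higher, 5023 to 5702 lower, 1490 to 1715 higher at 2-fold or more and 2403 to 2783 lower at 2-fold or more. All 8 named IDs kept direction and call against SBP2 input. For the difference from control 6 did so. ENSG00000274012 passed with the replicate block, at 1.29 (edgeR adjusted p = 0.000913), and its adjusted p ran from 0.154 to 0.568 under the other alternatives. ENSG00000266402, which passed nowhere, changed sign without control input 3 (0.11), control RIP 1 (0.02) and SBP2 RIP 3 (0.04), and reached -0.56 without control input 1. Their changes with the vector were not run under alternatives. The counts of the difference moved more. Library size alone moved its median over all IDs to -0.13, against 0.02 with TMM, and the split of calls to 2996 above and 4365 below control (40.7% above, against 54.6%). No low-count filter gave 2913 and 4154 (41.2%), DESeq2 size factors 3300 and 3877 and the DESeq2 test 3316 and 3900. IDs below control at 2-fold or more, 594 with TMM, numbered 1056 with library size alone and 1045 without the filter; the cause was not tested. Among IDs lower than SBP2 input, 750 and 686 were above control under these 2 settings, against 1141, and 902 were below control with library size alone, against 586. These splits were added after the data were seen. With the lysate as a replicate block 5537 were higher and 5702 lower than input, and 4034 above and 3448 below control, and no other named call changed. Without each library in turn, 5024 to 5114 were higher and 5023 to 5257 lower than input, with 1490 to 1546 and 2434 to 2641 at 2-fold or more. Above control were 3394 to 3807 and below it 2828 to 3311, with 1585 to 1712 and 523 to 714 at 2-fold or more. At low levels the median standard error of 0.43 limits what could be detected.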
